A study of Homo sapiens with 24 samples.

Results

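The genes described here are 7 endocrine and neuroendocrine genes, NEUROG3, NEUROD1, INSM1, ISL1, RFX6, MAFA and CHGA, chosen by name out of the 20136 protein-coding genes of the annotation. They were chosen with earlier results of these data known, so shares among them may not be independent of the data. The question asked of each was where it carried H3K4me3, H3K27ac and H3K27me3, and whether the covered length differed after TGFb or after PHF13 depletion. The cells were PANC-1, an established line from a human pancreatic ductal carcinoma, profiled by chromatin immunoprecipitation and sequencing (ChIP-seq). There were 3 groups: cells given a control siRNA (siControl), cells given the control siRNA and TGFb (siControl+TGFb), and cells given siRNAs against PHF13 and TGFb (siPHF13+TGFb). TGFb was used at 10 ng/ml for 48 h. All cells had therefore been transfected with siRNA, no group received siPHF13 without TGFb, and 1 cell line carried all comparisons. Each mark had 2 libraries per group, which gave 18 peak lists. Nothing in the labels says that the 2 libraries of a group came from separate cultures, so the spread between them may be technical.

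H3K4me3 is a mark of promoters, and H3K27ac of active promoters and enhancers. H3K27me3 is laid down by the Polycomb repressive complex PRC2 and marks silenced developmental genes. Promoters with both H3K4me3 and H3K27me3 are called bivalent. In the developing pancreas, NEUROG3 starts the endocrine programme in progenitors, NEUROD1, INSM1, ISL1 and RFX6 act as transcription factors after it, and MAFA belongs to mature beta cells, where it drives the insulin gene. CHGA encodes chromogranin A, a protein of secretory granules and a common marker of neuroendocrine cells. PANC-1 is a line of exocrine, ductal origin.

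The values are the bases covered by a peak within 5 kb of any transcription start site (TSS) of the gene's protein-coding transcripts, a window of 10001 to 10225 bp. Distances are from the most upstream of these TSSs. At NEUROD1 and RFX6 it lies inside the gene coordinates given below, at chr2:182545247 and chr6:117198405. Covered length is not a height, and it is capped by the window. Each list also gives the −log10 q of its peaks, from which the rank of a peak within its list was taken, with 0% as the strongest. List lengths ran from 27869 to 39202 peaks (H3K4me3), from 6004 to 36104 (H3K27ac) and from 59573 to 165717 (H3K27me3). The siPHF13+TGFb replicate 1 list was the shortest for every mark, and results that rest on it are also given without it. In the study's quality table this library has more peaks than its deposited list for every mark, and so has siControl replicate 1 for H3K27me3. The peak lists hold no read counts, the read totals of that table were not used here, and no interval for counting error can be given. One conflict touches every comparison. The peak names inside the lists labelled siPHF13+TGFb carry "NCT", the study's abbreviation for control siRNA with TGFb, and those inside the lists labelled siControl+TGFb carry "3AT". Groups here follow the labels. So does the study's quality table, which lists the deposited list lengths of siControl+TGFb, and of siPHF13+TGFb replicate 2, under those conditions. Were the labels of these 12 samples exchanged, the siPHF13+TGFb comparison would be reversed, and the TGFb comparison would rest on the other libraries, with 0 and 1210 bp of H3K4me3 against 529 and 1673 bp at NEUROG3, for instance.

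The PHF13 promoter was checked as the siRNA target, although an siRNA acts on the transcript and the check says little about depletion. PHF13 had 2637 and 3010 bp of H3K4me3 in siControl, 3018 and 3084 bp with TGFb, and 2205 and 3018 bp with TGFb after siPHF13. Of 6 ductal epithelial markers, 5 had H3K4me3 in all 6 lists and 5 had no H3K27me3 in any list. SOX9, a ductal transcription factor, had between 2001 and 3144 bp of H3K4me3. KRT7, a ductal keratin, had H3K4me3 in only 1 list. Of 5 acinar markers 1 had H3K4me3 in all 6 lists, and of 4 leukocyte markers and the 2 endothelial markers measured, none had.

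Upstream sequences of 3 of the genes are shown for their CpG content, 200 bases each in hg19. They run in the direction of transcription up to the base before the TSS. CpG dinucleotides are in capitals. NEUROG3 and RFX6 stand for the genes with both methylation marks in their windows, and CHGA for the 1 gene without H3K4me3 in its window.
NEUROG3 (chr10:71333179-71333378, minus strand): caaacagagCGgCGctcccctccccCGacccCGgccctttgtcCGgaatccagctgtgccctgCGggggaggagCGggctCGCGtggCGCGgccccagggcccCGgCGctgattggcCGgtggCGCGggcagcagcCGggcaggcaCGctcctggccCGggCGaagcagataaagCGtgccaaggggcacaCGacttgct
RFX6 (chr6:117198205-117198404, plus strand): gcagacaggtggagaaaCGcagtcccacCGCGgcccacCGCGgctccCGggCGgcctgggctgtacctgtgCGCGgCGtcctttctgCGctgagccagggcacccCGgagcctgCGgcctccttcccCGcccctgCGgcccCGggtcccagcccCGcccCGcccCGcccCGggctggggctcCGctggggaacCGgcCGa
CHGA (chr14:93389295-93389494, plus strand): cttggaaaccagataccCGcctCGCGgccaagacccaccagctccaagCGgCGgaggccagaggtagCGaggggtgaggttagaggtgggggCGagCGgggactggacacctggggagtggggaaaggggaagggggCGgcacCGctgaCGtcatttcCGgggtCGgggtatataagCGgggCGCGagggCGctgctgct
The NEUROG3 stretch held 22 CpG, RFX6 23 and CHGA 17, against a median of 12 over 20130 coding starts. So CHGA, which had no H3K4me3, also held more CpG than the median start. Within 500 bp of the TSS, the ratio of CpG observed to CpG expected from the C and G content was unremarkable. It was 0.690 at NEUROG3, 0.692 at RFX6 and 0.686 at CHGA, beside a median of 0.695 over coding starts.

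Of the 7 genes, 6 had H3K4me3 in at least 5 of the 6 lists, 6 had H3K27me3 in all 6 lists, and 6 had no H3K27ac in any list. Both methylation marks in at least 5 lists with no H3K27ac in any was the state of NEUROG3, NEUROD1, INSM1, ISL1 and RFX6, that is of 5 of the 7 genes. It was the state of 1859 of all coding genes, or 9.23%. The state refers to the window and not to the TSS itself. At NEUROD1 no H3K4me3 peak lay over the TSS in any list, and only 1 list had H3K4me3 within 2.5 kb of it. Over all coding genes, H3K27me3 in all 6 lists was seen for 21.8%, H3K4me3 in all 6 lists for 72.5%, and no H3K27ac in any list for 35.4%. MAFA differed from the other 5 transcription factor genes by small H3K27ac peaks in 3 lists, and CHGA by the lack of H3K4me3.

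**Figure D1:**
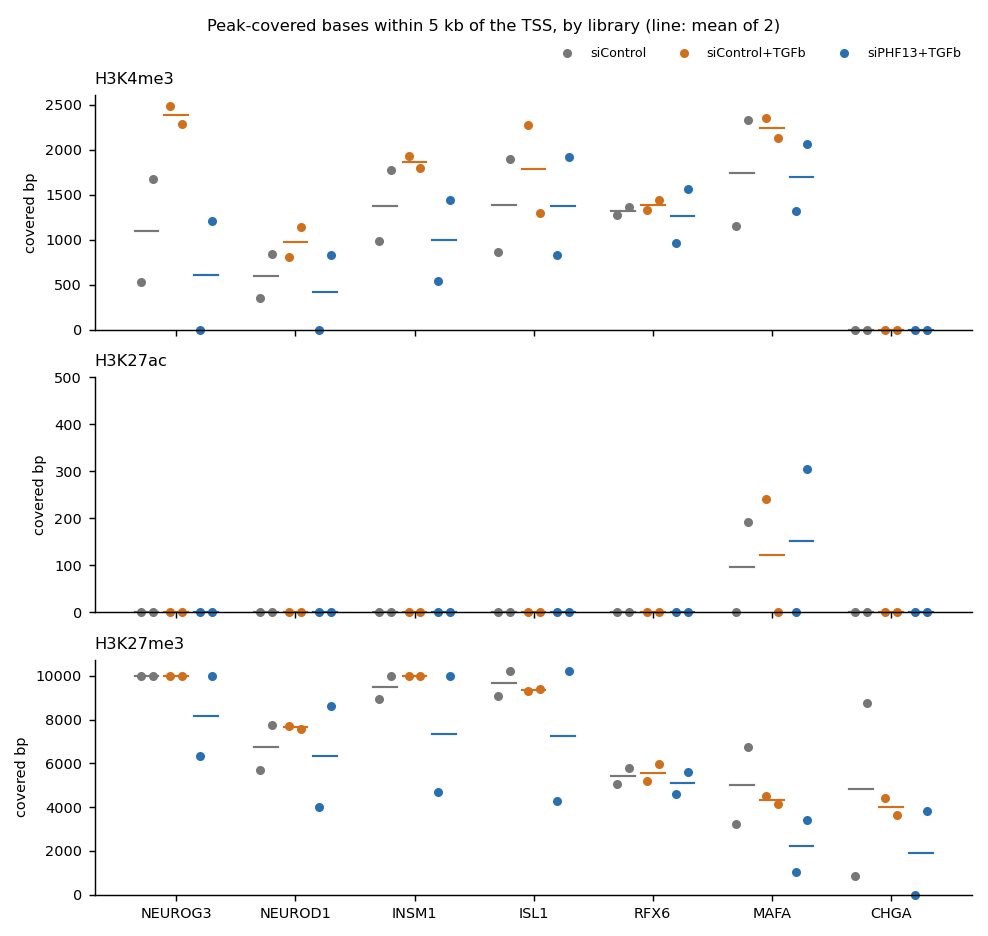
Bases covered by peaks within 5 kb of the TSS (vertical axis, bp) for each of the 7 genes in each library, with 1 panel per mark; points are libraries, coloured by group, and short lines are the means of 2 libraries. H3K4me3 is at 0 for CHGA in all 6 libraries, H3K27ac is above 0 only for MAFA in 3 libraries, and the lower siPHF13+TGFb point is replicate 1 wherever the 2 differ.

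NEUROG3 (ENSG00000122859, chr10:71331454-71333178, minus strand), the factor that starts the endocrine programme, had 529 and 1673 bp of H3K4me3 in siControl, 2484 and 2280 bp with TGFb, and 0 and 1210 bp with TGFb after siPHF13. The siControl+TGFb libraries were both above all others. The H3K4me3 formed a pair of peaks, one around or just after the TSS and one 0.7 to 1.9 kb upstream of it. The NEUROG3 TSS itself lay under the first in 3 of the 5 lists with any. Both peaks met starts of an antisense long non-coding RNA gene, ENSG00000236154. The first covered its TSS 516 bp inside NEUROG3 in all 5 of these lists, and the upstream peak covered its TSS 1524 bp before that of NEUROG3 in 4, so the H3K4me3 cannot be assigned to one of these genes. Its H3K27me3 covered the window whole, 10001 bp, in 5 of the 6 lists. In siPHF13+TGFb replicate 1 it covered 6314 bp in pieces. In those 5 lists a single H3K27me3 peak of 16347 to 46881 bp ran across the window, and within 50 kb of the TSS the mark covered between 27582 and 74184 bp, the most of the 7 genes. The strongest H3K27me3 peak ranked between 1.09% and 10.8% of its list, whereas the strongest H3K4me3 peak ranked between 50.1% and 83.2%. So the NEUROG3 start lay in a broad H3K27me3 domain that ranked high in its lists, with H3K4me3 inside it that ranked lower in its own. The fold enrichment of these strongest peaks was 4.02 to 6.12 for H3K4me3 and 3.32 to 3.87 for H3K27me3. Narrow and broad lists are unlike, so neither value compares strength between the marks.

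NEUROD1 (ENSG00000162992, chr2:182533022-182545554, minus strand), a bHLH factor of endocrine cells and neurons, had 350 and 844 bp of H3K4me3 in siControl, 814 and 1145 bp with TGFb, and 0 and 836 bp with TGFb after siPHF13. These groups overlapped. The H3K4me3 did not sit on the NEUROD1 start. In each of the 5 lists that had any, a peak lay 2.8 to 3.7 kb upstream, just inside the long non-coding RNA gene ENSG00000234595, whose TSS is 2593 bp before that of NEUROD1 on the other strand. A peak nearer to the TSS, at 412 to 661 bp upstream, was present only in siControl+TGFb replicate 2, at a rank of 94.8%. Its H3K27me3 extended over 5696 and 7763 bp in siControl, 7715 and 7582 bp with TGFb, and 4011 and 8634 bp with TGFb after siPHF13, and it lay over the TSS in all 6 lists. The window also holds TSSs of CERKL, which starts 145 bp or less from NEUROD1 on the same strand, so the marks cannot be assigned to one of these genes. The middle of the upstream H3K4me3 peak is shown, on the NEUROD1 strand, because it is the part of this window that carried H3K4me3.
NEUROD1 upstream (chr2:182548454-182548653, minus strand): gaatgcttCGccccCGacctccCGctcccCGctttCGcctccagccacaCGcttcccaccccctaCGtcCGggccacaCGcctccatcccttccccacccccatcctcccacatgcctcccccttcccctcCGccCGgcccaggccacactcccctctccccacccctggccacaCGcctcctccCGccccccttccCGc
These 200 bases held 14 CpG in capitals and a GC content of 73.5%.

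INSM1 (ENSG00000173404, chr20:20348748-20351593, plus strand), a zinc finger factor of endocrine and neuroendocrine cells, had 987 and 1769 bp of H3K4me3 in siControl, 1932 and 1798 bp with TGFb, and 545 and 1442 bp with TGFb after siPHF13. As at NEUROG3, both siControl+TGFb libraries exceeded all others, here by as little as 29 bp. H3K4me3 reached from about the TSS into the gene, which has no introns. In H3K27me3 it had 8943 and 10001 bp in siControl, 10001 bp in both libraries with TGFb, and 4670 and 10001 bp with TGFb after siPHF13. The nearest H3K27ac peak was 315312 bp or more from the TSS in all 6 lists.

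ISL1 (ENSG00000016082, chr5:50679282-50690564, plus strand), a LIM homeodomain factor of islet cells and motor neurons, had 865 and 1898 bp of H3K4me3 in siControl, 2274 and 1301 bp with TGFb, and 834 and 1915 bp with TGFb after siPHF13. The 3 groups overlapped, and the lower library of a group had 43.6% to 57.2% of the other. A peak lay over or within 77 bp of the TSS in all 6 lists, where a long non-coding RNA, ISL1-DT, starts on the other strand 116 bp away. A further H3K4me3 peak 3.4 to 4.3 kb inside the gene was present in 4 lists. H3K27me3 measured 9080 and 10225 bp in siControl, 9299 and 9413 bp with TGFb, and 4273 and 10225 bp with TGFb after siPHF13. No H3K27ac peak lay within 714787 bp of the TSS in any list.

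RFX6 (ENSG00000185002, chr6:117198375-117253324, plus strand), a winged helix factor needed for islet development, varied least among the genes. It had 1272 and 1365 bp of H3K4me3 in siControl, 1327 and 1441 bp with TGFb, and 963 and 1567 bp with TGFb after siPHF13. All 6 lists had 1 H3K4me3 peak over the TSS, and it was the only H3K4me3 peak within 50 kb. It was also the best ranked H3K4me3 peak of the 7 genes in 5 of the 6 lists, all but siPHF13+TGFb replicate 1, and ranked at 20.3% to 53.3% over the 6. The H3K27me3 bases numbered 5042 and 5779 bp in siControl, 5206 and 5951 bp with TGFb, and 4591 and 5598 bp with TGFb after siPHF13, as a single peak on both sides of the TSS in each list. That peak ranked between 0.611% and 5.43% of its list, with a median of 0.823%. The shortest H3K27me3 coverage was 0.771 of the longest at RFX6, against 0.631 at NEUROG3, 0.467 at INSM1, 0.465 at NEUROD1, 0.418 at ISL1 and 0.155 at MAFA.

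MAFA (ENSG00000182759, chr8:144501352-144512902, minus strand), the beta cell activator of insulin, had 1156 and 2333 bp of H3K4me3 in siControl, 2355 and 2129 bp with TGFb, and 1324 and 2063 bp with TGFb after siPHF13, as a peak over the TSS and, in 5 lists, another 0.9 to 1.8 kb into the gene. Its mean over the 6 lists, 1893 bp, was the highest of the 7 genes. It had the only H3K27ac of the set, 193 bp in siControl replicate 2, 242 bp in siControl+TGFb replicate 1 and 304 bp in siPHF13+TGFb replicate 2, between 234 and 669 bp upstream of the TSS. These were 1 library of each group, and the peaks ranked at 72.2% to 99.6% of their lists. The weakest, in siControl+TGFb, had a −log10 q of 1.65, near the lowest in the lists, and the others had 3.38 and 5.95. Its H3K27me3 extended over 3229 and 6750 bp in siControl, 4522 and 4165 bp with TGFb, and 1048 and 3424 bp with TGFb after siPHF13. It left the TSS free in all 6 lists, by 298 to 521 bp, and lay on both sides of it in 5 of them, while siPHF13+TGFb replicate 1 had it downstream only. At the other 5 transcription factor genes H3K27me3 lay over the TSS in all 6 lists, apart from ISL1 in siPHF13+TGFb replicate 1, where the nearest peak was 168 bp away.

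CHGA (ENSG00000100604, chr14:93389495-93401630, plus strand), the granule protein gene, had no H3K4me3 and no H3K27ac in any list. The nearest H3K4me3 peak was 102344 bp or more away. H3K27me3 measured 862 and 8755 bp in siControl, 4405 and 3635 bp with TGFb, and 0 and 3815 bp with TGFb after siPHF13. The highest and nearly the lowest value were thus both from siControl. Its H3K27me3 was weak, with the strongest peak at 22.8% to 81.7% of its list, and when all lists were cut to the length of the shortest, CHGA kept H3K27me3 in 3 lists while the other 6 genes kept it in all 6.

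**Figure D2:**
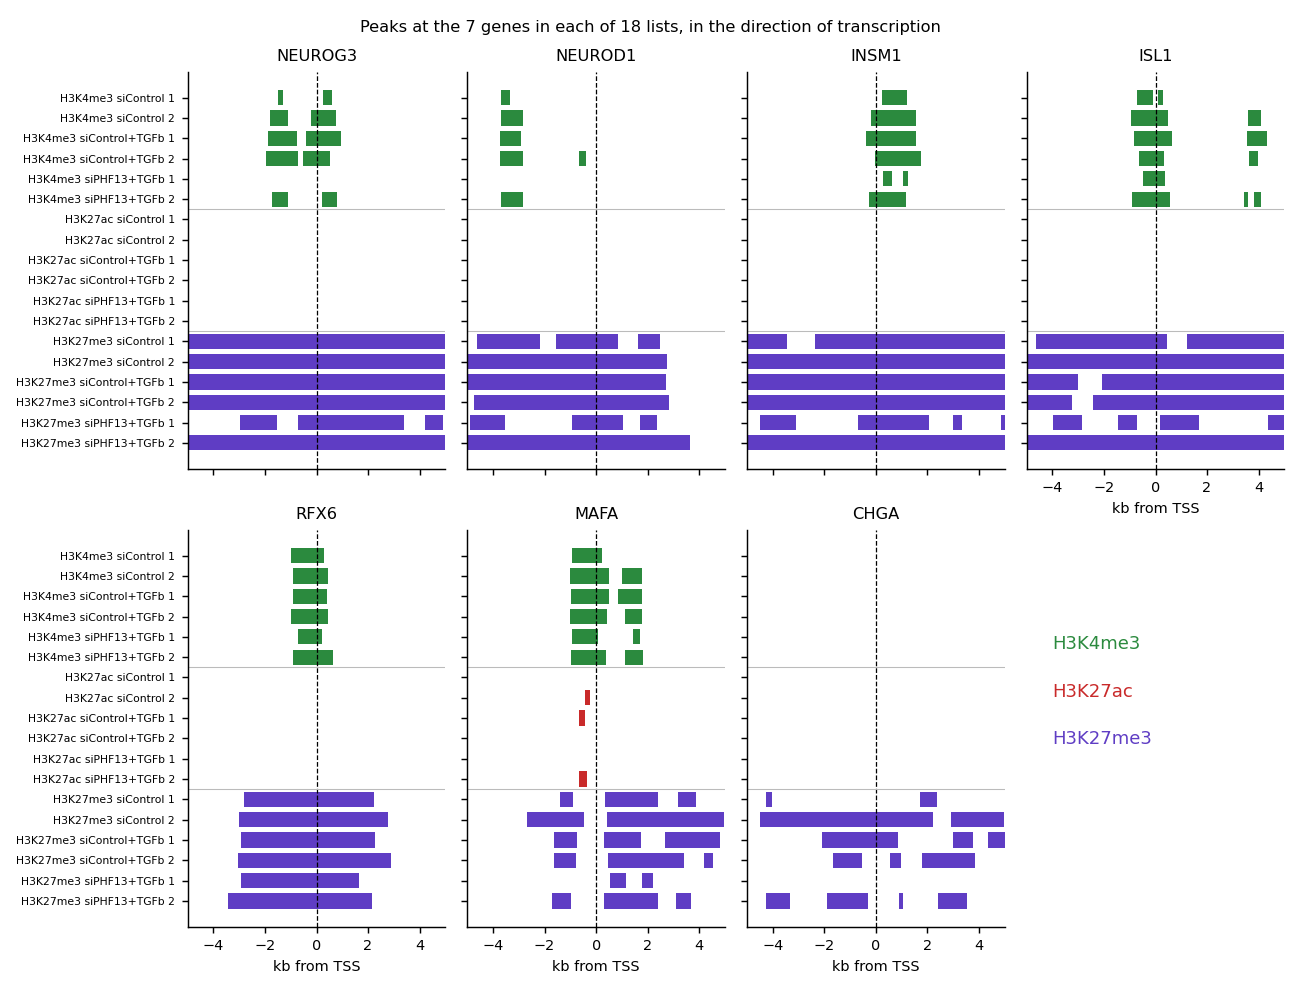
Peaks in each of the 18 lists (rows) around the most upstream TSS of each gene (dashed line), in kb along the direction of transcription and cut at 5 kb on either side; colours are marks. H3K4me3 lies over or beside the TSS at 5 genes, 2.8 to 3.7 kb upstream at NEUROD1 and nowhere at CHGA, while H3K27me3 spans the start at most genes and leaves it free at MAFA.

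The 2 methylation marks covered the same bases at most of these genes. They were measured in separate libraries, so each H3K4me3 library of a group was set against each H3K27me3 library of that group. At INSM1 and RFX6, all H3K4me3 bases lay under H3K27me3 in all 12 pairs. The median was also 100% at NEUROG3, NEUROD1 and ISL1, and the lowest values there were 65.0%, 18.7% and 22.5%, each in a pair with the shortest H3K27me3 list. At MAFA the median was 41.0%, the highest 60.6% and the lowest 0%. Overlap in a population of cells does not show that both marks were on the same chromosome copy.

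The ranks of the marks, each within its own lists, were far apart. Narrow and broad lists differ in length and in how q is given, so these ranks do not compare strength between marks. H3K27me3 at the 6 transcription factor genes ranked at 18.1% or better in every list. H3K4me3 at the same genes ranked between 20.3% and 83.2%. When only the strongest 50% of each list was kept, no gene had H3K4me3 in all 6 lists, RFX6 and MAFA had it in 5, and NEUROG3 had it in none. The 6 transcription factor genes still had H3K27me3 in all 6 lists. Among the 15645 coding genes with any H3K4me3, the mean covered length of NEUROG3 exceeded 21.3% of genes, NEUROD1 7.23%, INSM1 23.3%, ISL1 28.1%, RFX6 19.9% and MAFA 50.1%. Among the 9482 with any H3K27me3, NEUROG3 exceeded 94.4%, INSM1 93.4%, ISL1 93.0%, NEUROD1 86.4%, RFX6 78.8%, MAFA 70.5% and CHGA 68.4%. So 5 of these genes had fewer bp of H3K4me3 than most marked genes and more bp of H3K27me3 than most. These shares compare covered bp and are not adjusted for window length. Genes with TSSs far apart have longer windows, which can hold more bp of either mark. How far window length moved these shares was not tested.

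**Figure D3:**
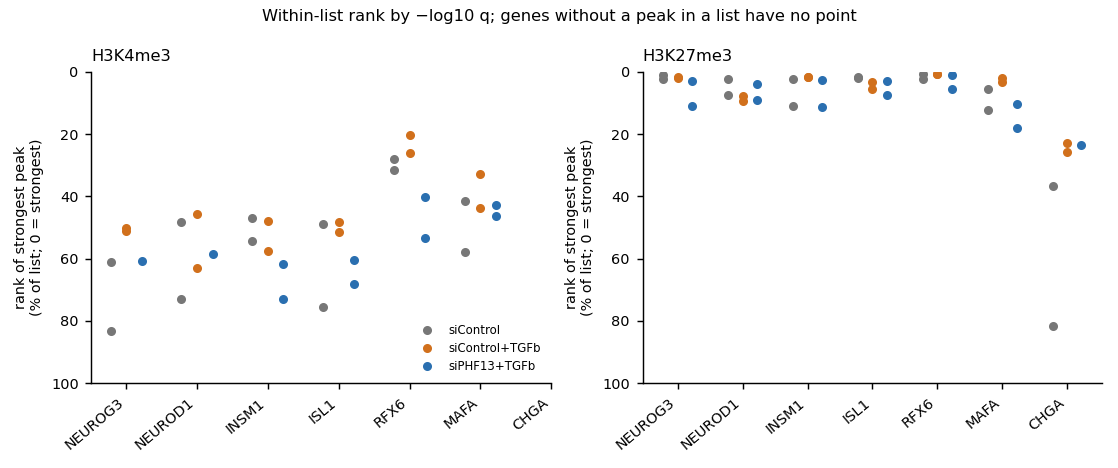
Rank of the strongest peak in the window, as a percent of its list with 0% at the top, for H3K4me3 (left) and H3K27me3 (right); each point is a library, coloured by group. H3K27me3 ranks of the 6 transcription factor genes lie at 18.1% or better, H3K4me3 ranks at 20.3% to 83.2%, and CHGA has no H3K4me3 point.

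**Figure D4:**
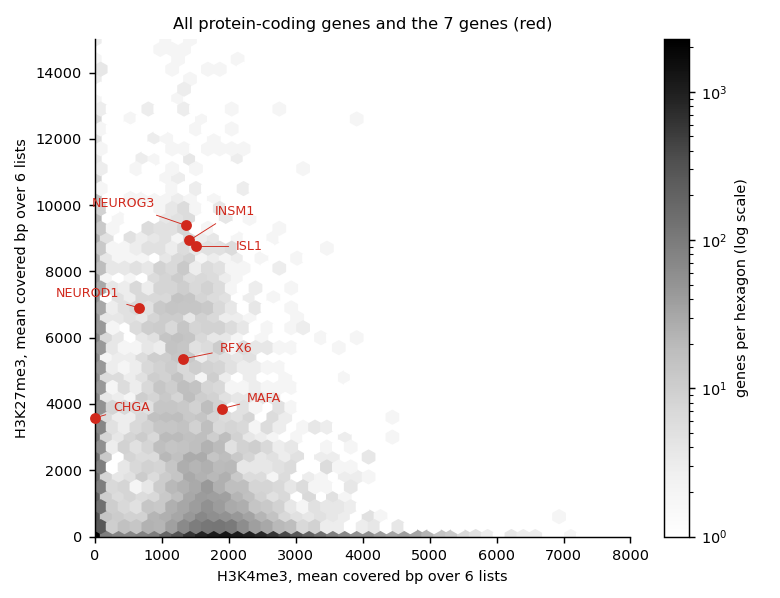
Mean bases covered by H3K4me3 (horizontal axis, bp) and H3K27me3 (vertical axis, bp) over 6 lists for all protein-coding genes, as counts per hexagon on a log colour scale, with the 7 genes in red. NEUROG3, INSM1 and ISL1 lie close together between 8753 and 9387 bp of H3K27me3, and CHGA lies on the vertical axis at 3579 bp; genes beyond 8000 bp of H3K4me3 or 15000 bp of H3K27me3 are outside the frame.

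The comparison of siControl+TGFb with siControl asked what TGFb did to these starts. None of the members passed limma, fitted to log2(bp + 100) over all genes with a peak in at least 1 list of the mark, at a Benjamini-Hochberg adjusted p under 0.05. For H3K4me3, 6 members were tested and 0 were called, against 0.128% of all genes, and 0 members had an unadjusted p under 0.05. Both libraries were above both siControl libraries at NEUROG3 and INSM1, 2 of the 6, where 46.5% of all genes were higher in this way and 2.07% lower, with no member lower. The log2 differences of the 6 genes lay between 0.06 at RFX6, which was −0.05 when libraries were centred on their medians, and 1.23, with a median of 0.44 beside 0.12 over all genes. That median rested on siControl replicate 1, the lower control library at all 6 genes. Without it the median was 0.04 beside 0.07 over all genes, and without siControl replicate 2 it was 0.91 beside 0.17. NEUROG3 had the largest difference, 1.23 with an SE of 1.33, from a mean of 1101 ± 809 bp (SD, n = 2) to 2382 ± 144 bp (SD, n = 2), and it was 0.48 and 1.98 without these libraries in turn. With 2 libraries against 2, the exact two-sided permutation test cannot go below p = 0.333, the value at NEUROG3 and INSM1. For H3K27ac only MAFA could be tested, and it was not called, against 0% of all genes. Its groups overlapped, where 53.4% of all genes were higher and 0.0538% lower. For H3K27me3, 0 of 7 members were called, against 0% of all genes. Higher without overlap were 5.58% of all genes, lower 6.31%, and no member was either. The H3K27me3 differences lay between −0.11 at MAFA and 0.49 at CHGA, which was 4.09 with lists of equal length and −1.11 without siControl replicate 1. Those of INSM1 and RFX6 changed sign on centring, and NEUROG3, at the full window in all 4 libraries, was at 0.

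The comparison of siPHF13+TGFb with siControl+TGFb asked what PHF13 depletion did in the presence of TGFb. For H3K4me3, 0 of 6 members were called by limma, against 0.141% of all genes, and 0 members had an unadjusted p under 0.05. All 6 log2 differences were below 0, from −2.78 at NEUROG3 to −0.16 at RFX6, the latter 0.06 when libraries were centred, with a median of −0.70 beside −0.22 over all genes, and of −0.15 beside −0.09 without siPHF13+TGFb replicate 1. The value at NEUROG3 had an SE of 1.33 and an adjusted p of 0.416, and its means were 605 ± 856 bp (SD, n = 2) in siPHF13+TGFb and 2382 ± 144 bp (SD, n = 2) in siControl+TGFb. Both libraries were below both of siControl+TGFb at NEUROG3, INSM1 and MAFA, 3 of the 6, where 60.7% of all genes were lower in this way and 0.288% higher. That share was not above the one of all genes. Without siPHF13+TGFb replicate 1 the same 3 genes were lower, beside 62% of all genes, and RFX6 was higher, beside 10.4%. Without that library the log2 difference was −0.92 at NEUROG3, −0.19 at NEUROD1, −0.35 at INSM1, −0.11 at MAFA, 0.14 at ISL1 and 0.17 at RFX6.

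For H3K27ac, MAFA alone was tested and was not called, against 0% of all genes, and its groups overlapped, where 0.0154% of all genes were higher and 10.1% lower. Without siPHF13+TGFb replicate 1 it was higher, beside 29.3% of all genes. For H3K27me3, 0 of 7 members were called by limma, against 0% of all genes, and 0 had an unadjusted p under 0.05. All 7 differences were below 0, from −2.71 at CHGA to −0.13 at RFX6, with a median of −0.49 beside −0.80 over all genes. Without siPHF13+TGFb replicate 1, which had 0 bp at CHGA, the value at CHGA was −0.07, and the medians of the members and of all genes were 0 and 0. With all libraries, 5 of the 7, those of NEUROG3, NEUROD1, INSM1, ISL1 and RFX6, were above 0 when libraries were centred as above. Centring moved the median of all genes from −0.80 to 0.05. Only at MAFA were both libraries below both of siControl+TGFb, where 25.7% of all genes were lower and 1.07% higher. Without siPHF13+TGFb replicate 1, the H3K27me3 of NEUROG3 and INSM1 filled the window in each remaining library of this comparison, NEUROD1 and ISL1 were higher beside 27% of all genes, and MAFA was lower beside 26.1%. A p above the threshold with 2 libraries a group does not show that the marks were alike.

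Starts of these genes were compared with all coding starts for CpG content, which the choice of genes did not use. Within 500 bp of the TSS, INSM1 had 140 CpG and MAFA 132, more than 98.5% and 97.4% of coding genes. CHGA had 82, ISL1 76, RFX6 70, NEUROG3 69 and NEUROD1 48, against a median of 60 and quartiles of 23 and 86. In sum over each window, the bases under H3K4me3 were richer in CpG than the rest, although 2 of the single regions were not. Bases under H3K4me3 in at least 4 of the 6 lists held 15.7 CpG per 100 bp at INSM1, beside 4.86 in the rest of the window. The same values were 12.4 and 4.33 at MAFA, 8.73 and 3.57 at NEUROD1, 6.87 and 2.04 at ISL1, 6.37 and 0.541 at RFX6, and 5.61 and 3.73 at NEUROG3. The exceptions were the upstream region of NEUROG3, with 3.66, and the region inside ISL1, with 1.83, whereas the regions nearest to these starts had 8.53 and 7.64. The single RFX6 region of this kind, 1319 bp from 919 bp before to 399 bp after the TSS, held 84 of the 131 CpG of its window. CHGA had many CpG and no H3K4me3. Of 5730 coding genes with at least as many, 82, 171 had no H3K4me3 in any list, or 2.98%.

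**Figure D5:**
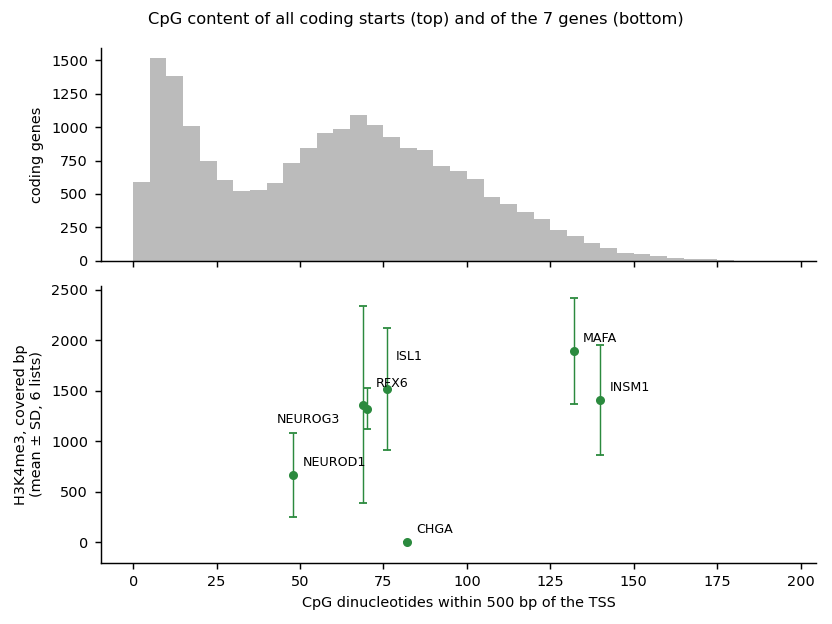
Number of CpG dinucleotides within 500 bp of the TSS for all coding genes (top, count of genes) and for the 7 genes (bottom), where the vertical axis gives H3K4me3 covered bp as mean ± SD over 6 lists. CHGA has 82 CpG and no H3K4me3, while RFX6 with 70 has a mean of 1323 bp.

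In the 200 bases before the TSS, short motifs were searched as letters on both strands. GGGCGG, the GC box, was in 5 of the 7 genes and in 48.4% of coding genes, with 5 copies at RFX6. CANNTG, the E-box that bHLH factors such as NEUROG3 and NEUROD1 bind, was in 6 of the 7 and in 51.7% of coding genes. TGACG, the core of a cyclic AMP response element, was in CHGA, ISL1 and NEUROD1 and in 20.6% of coding genes. In the CHGA sequence above it stands as ctgaCGtcatt, where both strands match. CCAAT was in 4 of the 7 and in 29.3% of coding genes, and TATAAA in MAFA alone and in 8.03%. A match is a string of letters and says nothing of binding in these cells.

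Other genes of the endocrine programme were taken from 3 lists of 36 genes in all, 17 further transcription factors, 13 genes of secretory granules and neuroendocrine cells, and 6 islet hormones. These lists too were chosen with earlier results of these data known. No gene of these lists was called by limma in either direction for any mark or comparison. H3K4me3 was in all 6 lists at 22 of the 36, H3K27me3 at 22, and H3K27ac at 0, and H3K27ac was in no list at 29. Both methylation marks in at least 5 lists with no H3K27ac in any was the state of 14 of the 36, of which 11 were transcription factors and 3 granule genes. The transcription factor with the most of both methylation marks was PAX6, which has several TSSs and so a window of 24717 bp, with 3525 ± 561 bp of H3K4me3 and 16703 ± 4739 bp of H3K27me3 (SD over 6 lists). MYT1, with a window of 30117 bp, had 15156 ± 5889 bp of H3K27me3 and NCAM1, a neural adhesion gene with a window of 35324 bp, 13505 ± 5874 bp. GLIS3, a factor of beta cell development, was of another kind, with, in a window of 28564 bp, 3491 ± 1259 bp of H3K4me3, 1482 ± 1460 bp of H3K27ac and no H3K27me3, and NKX6-1 had 2871 ± 311 bp of H3K4me3. Of the granule genes, VGF had 1224 ± 707 bp of H3K27ac and ENO2, neuron-specific enolase, 1033 ± 890 bp. No H3K27me3 in any list with H3K27ac in at least 4 was the state of 3 genes, GLIS3, ENO2 and PDX1, of which PDX1 was named after its values were seen. Among the islet hormones 4 of 6 had no H3K4me3 in any list and 6 of 6 had no H3K27ac.

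Over all coding genes, those most like each of the 7 were found by the mean absolute difference in covered bp over the 18 lists. A like pattern of marks at the genes found thus follows largely from how they were picked. NEUROG3 was nearest to SOX14 and C3orf70, at 238 and 248 bp per list. NEUROD1 was nearest to ASIC4 and DUOXA2 at 259 and 274 bp, and INSM1 to CDH22 and C1QL2 at 179 and 201 bp. ISL1 was nearest to OVOL2 and ADAMTS14 at 268 and 269 bp, RFX6 to CASKIN1 and STK32A at 215 and 235 bp, and MAFA to LRP4 and HS3ST3B1 at 256 and 265 bp. These 12 genes all had H3K4me3 and H3K27me3 in 6 of 6 lists and H3K27ac in none. CHGA was nearest to MYH7, a cardiac myosin gene, and WDFY4, at 101 and 126 bp, both without H3K4me3 in any list.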

How the data were processed

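ChIP-seq peaks from PANC-1 cells were used for H3K4me3, H3K27ac and H3K27me3 in 3 groups of 2 libraries. Per the submitters' processing notes, reads were trimmed with Trim Galore 0.4.1, aligned to hg19 with Bowtie2 2.4.1 and called with MACS2 2.2.7.1. Peaks were called by the authors per library, narrow for H3K4me3 and H3K27ac and broad for H3K27me3. The deposited columns hold a score, a fold enrichment (ratio), and −log10 p and −log10 q values. For broad peaks these are averages over the region. The lowest deposited −log10 q was 1.30 for narrow and 1.00 for broad peaks. For narrow peaks the study's methods state a stricter threshold, a −log10 q of 3, which was run as an alternative. A deeper library or a better enrichment gives more and wider peaks, so list length moves covered bp. Inputs (6 libraries) were not analysed here.

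Covered bp were counted in merged peaks within 5 kb of each TSS of protein-coding transcripts (GENCODE v44 lifted to hg19), since the study's methods count a peak within that distance as on a gene. Differences were fitted with limma 3.58.1 (R 4.3.3) on log2(bp + 100) over genes with a peak in at least 1 of 6 lists, with all 6 libraries in 1 fit and Benjamini-Hochberg adjustment over all genes tested. Fold changes on this scale understate the change of short coverage. The fit was tested on simulated data. The genes and lists were chosen with earlier results of these data known. Named by rule were the 7 genes, list genes called by limma, the 3 list genes with most covered bp per mark, and the 2 most alike genes each. PECAM1 was not found by that symbol, which left 2 endothelial markers. Sequence came from the GRCh37 genome, the same as hg19. Alternatives were shorter lists, windows, thresholds, pseudocounts, filters, centring, a replicate block and leaving out each library.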

Additional observations from a re-analysis of the deposited data

How the results depend on the processing

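Read depth was not used, windows cap H3K27me3, and groups of 2 libraries give little on spread. In all 98 alternative fits no member was called. For H3K27ac, the fits with lists of equal length and with the 50% strongest peaks held no member, so they could call none. Where leaving out a library leaves 1 in a group, that library is assumed to vary like the others. H3K27me3 in all 6 lists held for 6 members, or 7 without siPHF13+TGFb replicate 1, and H3K27ac for 0, under all alternatives. H3K4me3 held for 4, or 6 without that library, and for 0 among the 50% strongest peaks. The state with both methylation marks in at least 5 lists and no H3K27ac also moved. In the window of 2.5 kb each side NEUROD1 left it, with H3K4me3 in 1 list. Among the 50% strongest peaks it held for RFX6 and MAFA only. With lists of equal length MAFA, then without H3K27ac, joined the others. The share of all genes in this state was counted for the main setting only.

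Over all genes, limma called 20 (TGFb) and 22 (siPHF13) for H3K4me3, and 9 and 12 with centring. Over all alternatives the counts ran from 0 to 140 and from 0 to 174. The 0 calls for H3K27ac after siPHF13 became 9530 without siPHF13+TGFb replicate 2, when the shortest list alone stood for its group, and the 0 for H3K27me3 after TGFb became 906 without siControl replicate 1. Those for H3K27ac after TGFb and H3K27me3 after siPHF13 stayed between 0 and 2 and between 0 and 3. Labels share replicate numbers but do not say that these pair the libraries. With the replicate block the counts were 0 and 0, and 0 members were called. Deviations of same-numbered libraries correlated, over the pairs of groups, between −0.34 and 0.49 in H3K4me3, between −0.21 and 0.29 in H3K27ac, and between −0.015 and 0.15 in H3K27me3. A crossed block, chosen after seeing the data, gave 4 and 4 calls.

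Counts of members whose groups do not overlap are set beside the share of all genes. Above siControl in H3K4me3 after TGFb were 2 members, 1 with lists of equal length (45% of all genes), 0 among the 50% strongest peaks (44.1%) and 2 to 6 without single libraries (54.9% to 74.5%). Below after siPHF13 were 3, 1 among the 50% strongest (58.4%) and 3 to 6 without single libraries (62% to 93.2%), and above were 0, or 0 to 1 (0.85% to 10.4%). For H3K27ac the 0 higher became 0 to 1 without single libraries after TGFb (54% to 96.3%) and after siPHF13 (0.0154% to 29.3%). For H3K27me3 after TGFb, 0 higher became 1 with lists of equal length (10.2%) and 0 to 6 without single libraries (5.97% to 55.7%), and 0 lower became 0 to 4 (7.96% to 71.5%). After siPHF13, 1 lower, MAFA, became 2 in the window of 2.5 kb each side, RFX6 and CHGA without MAFA (23.6%), and 1 to 7 without single libraries (26.1% to 67.1%), and 0 higher became 0 to 2 (2.1% to 27%). With a −log10 q of at least 3, MAFA had H3K27ac in 2 lists and not 3.

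Of the log2 differences of members, 32 of 442 alternative values changed sign, and the cause was not tested. Fits with another filter, a replicate block or only the compared libraries return the main estimate by design. These are among the 442 and could not change sign, so the share is no measure of stability. After TGFb, H3K4me3 at NEUROD1 became −0.023 (50% strongest), at ISL1 −0.10 (equal length) and at RFX6 −0.053 (centred). H3K27ac at MAFA became −0.78 (−log10 q of at least 3) and −0.26 (centred). H3K27me3 became −0.061 at INSM1 and −0.098 at RFX6 (both centred), and 0.046 at ISL1 (2.5 kb). After siPHF13, H3K4me3 became 0.029 at ISL1 (equal length) and 0.056 at RFX6 (centred). Centred H3K27me3 became 0.52 at NEUROG3, 0.48 at NEUROD1, 0.31 at INSM1, 0.36 at ISL1 and 0.72 at RFX6, since centring moved the median of all genes from −0.80 to 0.05. Without single libraries, values after TGFb ran for H3K4me3 from −0.13 to 0.92 at ISL1 and −0.057 to 0.90 at MAFA, for H3K27ac from −0.78 to 1.00 at MAFA, and for H3K27me3 from −0.021 to 0.42 at NEUROD1, −0.13 to 0.043 at ISL1, −0.053 to 0.14 at RFX6, −0.63 to 0.42 at MAFA and −1.11 to 2.09 at CHGA. After siPHF13 they ran for H3K4me3 from −0.97 to 0.14 at ISL1 and −0.48 to 0.17 at RFX6, for H3K27ac from −0.89 to 1.13 at MAFA, and for H3K27me3 from −0.91 to 0.17 at NEUROD1, −1.11 to 0.13 at ISL1 and −0.27 to 0.0081 at RFX6.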
